A study of Homo sapiens with 7 samples.

Results

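The proteins of the mitochondrial ribosome were followed as 98 rows of an array table, which belong to 77 nuclear genes named MRPL or MRPS, out of 24000 rows in all. Members were chosen by gene symbol alone, MRPL or MRPS followed by a number and at most 1 of the letters A to C, and the family was proposed with earlier results of these arrays known. By symbol, 65 rows of 49 genes belong to the large subunit and 33 rows of 28 genes to the small subunit. All were measured in untreated Daoy cells, an established human medulloblastoma line whose genotype the labels give as WT, cultured in a modified MEM with serum, penicillin and streptomycin. Cy3-labelled material was hybridised to 4 arrays of biological replicate 2 (arrays 1 to 4) and to 3 arrays of biological replicate 1 (arrays 1, 2 and 4). Array 3 of replicate 1 was not analysed here. The series has no treatment and no second condition, so the only comparison is replicate 2 against replicate 1. Each biological replicate was spread over the arrays of its own 4-plex slide, so culture and slide cannot be told apart.

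The mitochondrial ribosome, or mitoribosome, translates the few mRNAs of the mitochondrial genome, which encode subunits of the respiratory chain and of ATP synthase. Its rRNAs are transcribed inside the organelle, but its proteins are encoded in the nucleus, made in the cytosol and imported. Some of these proteins descend from ribosomal proteins of the bacterial ancestor, and others were added in the mitochondrial lineage. The large subunit carries the peptidyl transferase centre, the stalk that receives translation factors, the central protuberance and the exit of the nascent chain at the inner membrane. The small subunit binds the mRNA and holds the decoding centre, with a head above a body and platform.

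Values are log2 intensities as deposited. A level is the mean of the means of the 2 biological replicates, with the SD over those replicates (n = 2). A difference is replicate 2 minus replicate 1 on the log2 scale, and a row was called when its adjusted p was under 0.05 in a fit over all 24000 rows. The arrays of a replicate are technical repeats, so that p measures the spread between arrays and not between cultures. Each intensity comes from bulk RNA, in which fewer cells with a transcript and less of it per cell cannot be told apart. Background was taken as the 95th percentile of 364 rows of olfactory receptor genes, which came to 7.54 for levels, 7.24 in replicate 2 and 7.79 in replicate 1. Vimentin, at 15.02, and the Hedgehog receptor gene PTCH1, at 12.22, lay far above it, TUBB3 and GLI2 were also above, SOX2 was just above at 7.94, and NES, GLI1, ATOH1, ZIC1 and OTX2 did not exceed it. Of the rows for leukocyte, liver and erythroid markers, 0 of 10 exceeded background.

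By the level over both replicates, Daoy cells gave signal for nearly the whole mitoribosome. Of the 65 large subunit rows, 64 lay above background, with levels from 7.19 to 12.65 and a median of 9.75. Of the 33 small subunit rows, 31 lay above background, with levels from 6.16 to 12.19 and a median of 10.1. Those medians stand at percentiles 67.6 and 72.5 of all 19125 named rows, whose own median level was 8.44, and 60.8% of all named rows exceeded background. The small subunit median is the level of MRPS22, whose arrays of replicate 2 ranged from 5.62 to 11.62. With each replicate set against its own background, 64 large and 31 small subunit rows were above it in replicate 2. In replicate 1 the counts were 61 and 25. Of all 19125 named rows, 12272 were above the background of replicate 2 and 11045 above the higher background of replicate 1. With the stricter 99th percentile of the olfactory receptor rows, 8.42, as background, 51 large and 24 small subunit rows were above it. The share of all rows above that limit was not counted. Cytosolic ribosomal protein rows were brighter, with a median level of 13.33 over 92 rows.

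The highest levels in the large subunit were those of MRPL32, whose yeast counterpart is matured by a mitochondrial protease before it joins the ribosome, at 12.65 ± 0.01, of MRPL51 at 12.64 ± 0.28 and of MRPL9 at 12.27 ± 0.09 (SD, n = 2 each). In the small subunit they were those of MRPS24, the counterpart of bacterial S3 in the head, at 12.19 ± 0.82, and of both rows of MRPS21, the counterpart of bacterial S21, at 12.15 ± 0.67 and 12.05 ± 0.79. The large subunit rows with the lowest levels were MRPL13 at 7.19 ± 0.54, MRPL16 at 7.59 ± 0.16 and the NM_170739 row of MRPL11 at 7.77 ± 0.85. In the small subunit the lowest were the NM_033362 row of MRPS12 at 6.16 ± 0.20, MRPS14 at 6.82 ± 0.44 and MRPS34 at 7.64 ± 0.68. Levels of different rows also depend on how well their probes hybridise, so the order of single genes is a description of the arrays. The other row of MRPL11, NM_016050, had a level of 12.03 ± 0.12, and why the rows of this gene differ was not tested.

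**Figure D1:**
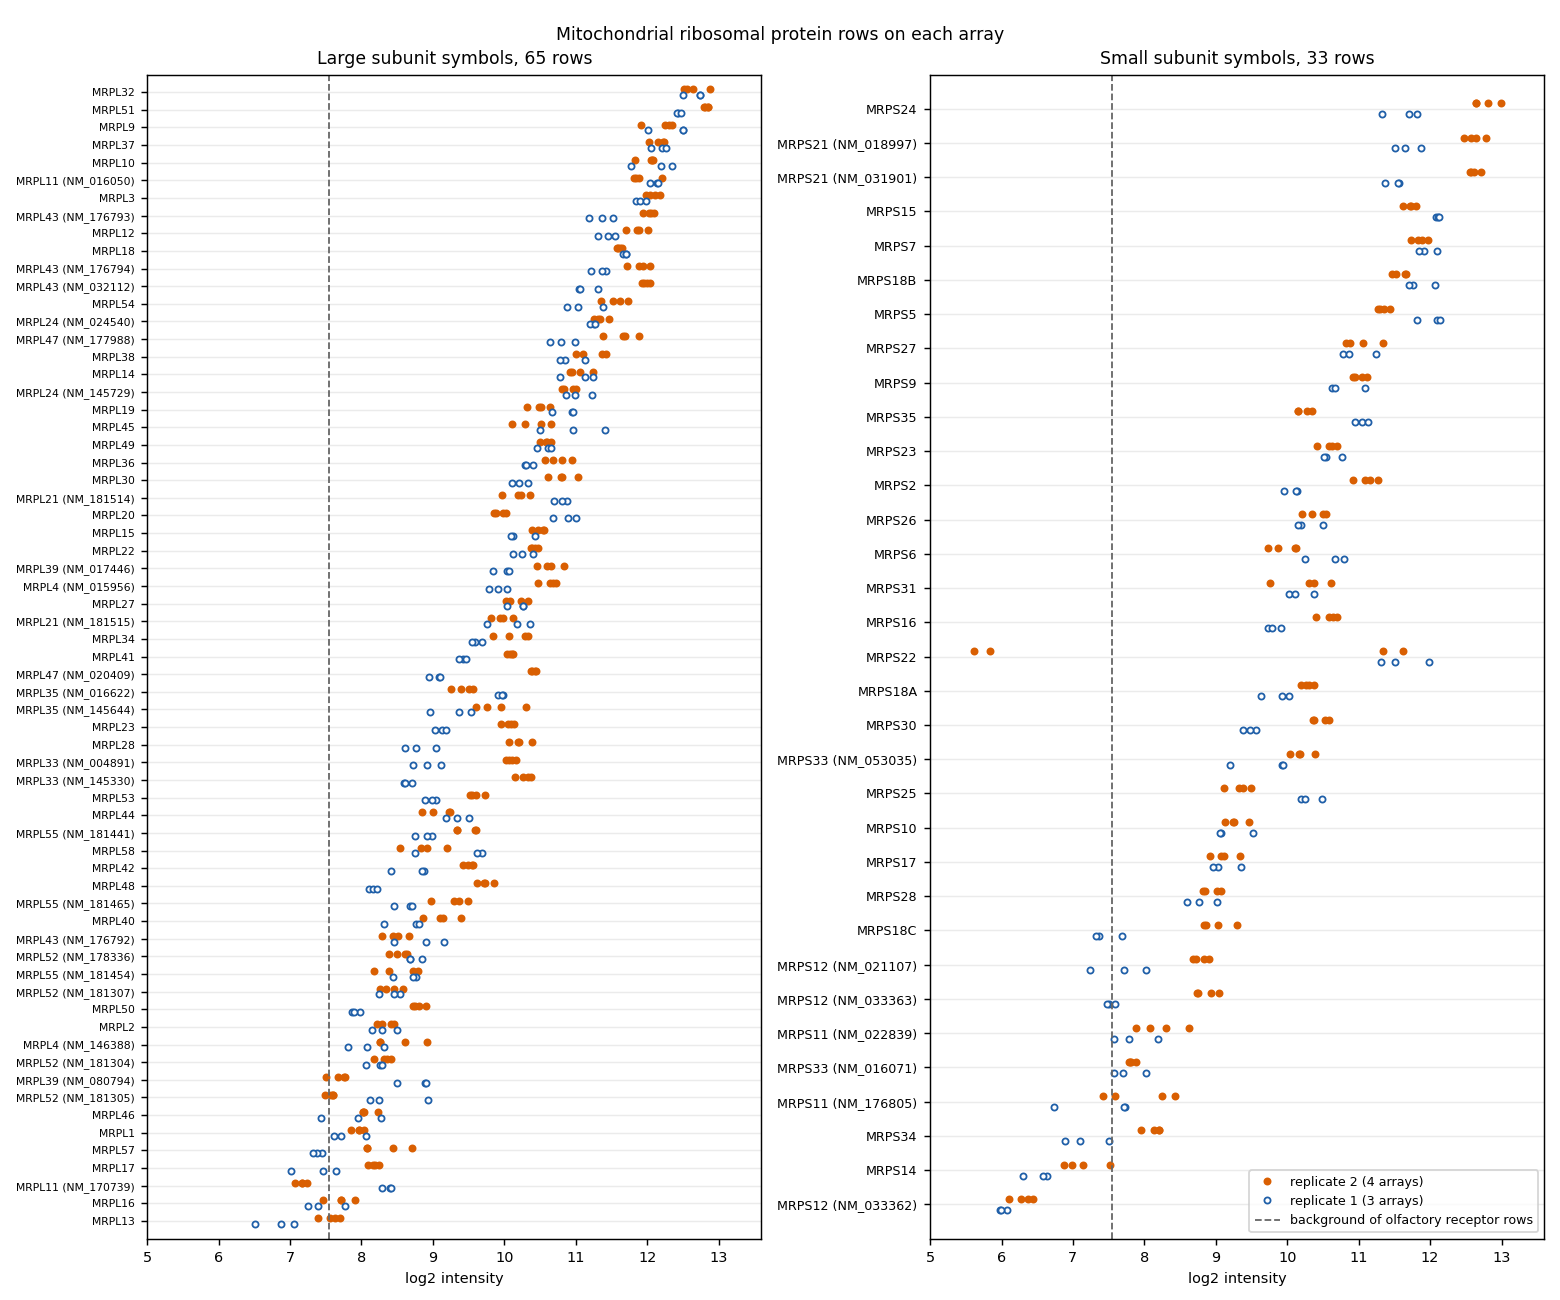
Log2 intensity of each of the 98 member rows on each array, large subunit left and small subunit right, rows ordered by level. Filled orange points are the 4 arrays of replicate 2, open blue points the 3 arrays of replicate 1, and the dashed line is the background of 7.54. Most rows lie between about the background line and the top of the axis, and MRPS22 has 2 arrays of replicate 2 far to the left of the others.

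Many promoters of these genes held short sequences that are known to be bound by regulators of mitochondrial genes. A RefSeq window on GRCh38.p14, from 250 bases before to 50 bases after the annotated gene start, was at hand for 69 of the 77 genes. The 8 without one were MRPL2, MRPL10, MRPL13, MRPL15, MRPL21, MRPL23, MRPL35 and MRPS28. The letters CCGGAAG, the core bound by the ETS family, to which GABP (also called NRF-2) belongs, occurred on either strand in 29 of 69 windows, or 42.0%, against 14.2% of the windows of 15843 protein-coding genes. The letters AAGATGGC, the core bound by YY1, occurred in 20 of 69, or 29.0%, against 3.91% of all windows. GCATGCGC, bound by NRF1, was in 6 windows (8.7%, against 4.26%). The E-box CACGTG, bound by MYC and USF, was in 6 (8.7%, against 8.88%), and the GC box GGGCGG, bound by SP1, was in 42 (60.9%, against 58.5%). The shares of the large and small subunit were close for the ETS letters, 40.5% and 44.4%, and for the YY1 letters, 28.6% and 29.6%. Median GC content was 60.3% in the member windows and 62.7% in all windows. A match is a run of letters and not a measured binding site, and CCGGAAG and AAGATGGC, which can share letters, did so in 0 member windows. Overlaps with the other motifs were not counted.

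Where in the window the letters stood differed between the cores. Of 39 ETS matches, 22 began in the last 60 bases before the gene start, 18 of the 39 on the strand of the gene. Of 21 YY1 matches, 15 began at or after the start, and all 15 of these lay on the strand of the gene. The median first base of the 17 YY1 matches on that strand was base 13 counted from the gene start. AAGATGGC holds an ATG triplet, and whether it covers the start codon was not examined.

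Windows of 5 genes are printed from 130 bases before to 30 bases after the start, 5′ to 3′ on the strand of the gene, with the ETS and YY1 letters in capitals (in MRPL48 the ETS letters read on the other strand). MRPS18A (chr6:43687762-43687921, minus strand), MRPL20 (chr1:1407264-1407423, minus strand) and MRPS10 (chr6:42217832-42217991, minus strand) carry the same arrangement, ETS letters upstream and YY1 letters just past the start, and are shown because their rows were higher, lower and not called between the replicates. MRPL33 (chr2:27771589-27771748, plus strand) and MRPL48 (chr11:73787744-73787903, plus strand), with ETS letters alone in this stretch, are shown because they had the highest differences in the large subunit.
MRPS18A: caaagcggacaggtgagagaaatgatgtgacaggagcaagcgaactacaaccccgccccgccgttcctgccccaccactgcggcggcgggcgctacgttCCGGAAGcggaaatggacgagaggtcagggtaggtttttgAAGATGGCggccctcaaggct
MRPL20: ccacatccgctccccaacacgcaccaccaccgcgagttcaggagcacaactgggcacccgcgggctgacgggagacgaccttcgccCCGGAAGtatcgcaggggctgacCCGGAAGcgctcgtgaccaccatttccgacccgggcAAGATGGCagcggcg
MRPS10: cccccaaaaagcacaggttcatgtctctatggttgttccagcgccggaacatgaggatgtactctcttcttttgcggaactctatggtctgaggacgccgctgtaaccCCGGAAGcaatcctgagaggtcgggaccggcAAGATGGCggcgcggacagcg
MRPL33: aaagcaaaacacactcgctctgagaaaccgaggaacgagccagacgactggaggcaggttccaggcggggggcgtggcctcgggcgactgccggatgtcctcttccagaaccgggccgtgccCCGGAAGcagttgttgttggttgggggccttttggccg
MRPL48: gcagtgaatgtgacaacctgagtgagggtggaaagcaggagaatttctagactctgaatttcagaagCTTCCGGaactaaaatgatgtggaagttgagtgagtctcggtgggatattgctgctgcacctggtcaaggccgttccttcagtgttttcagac
In MRPS18A the ETS letters begin at base -31 and the YY1 letters at base 9, in MRPS10 at -22 and 9, and in MRPL20 at -44 and -21 for the ETS letters and 15 for the YY1 letters. In MRPL33 the ETS letters begin at -8 and in MRPL48 at -63.

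**Figure D2:**
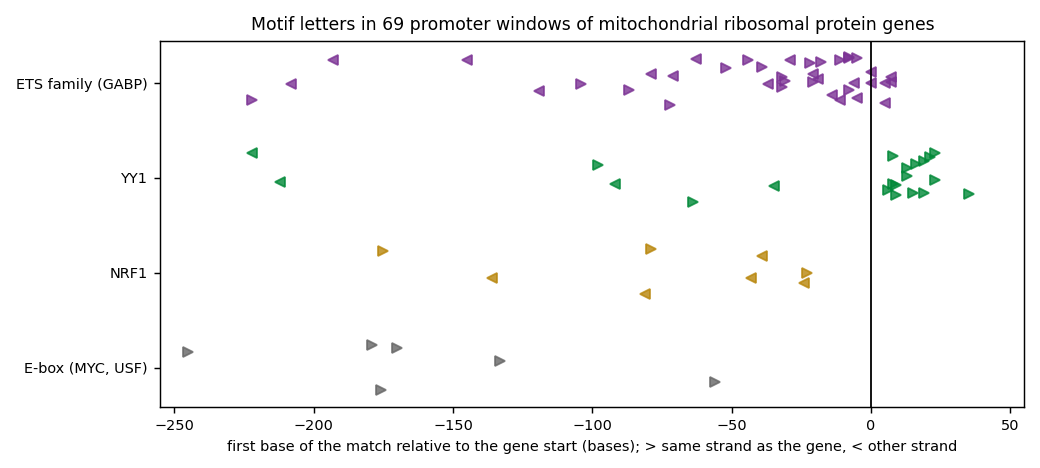
Position of each match to 4 motifs in the 69 promoter windows of member genes, as bases from the gene start (vertical line). Each triangle is 1 match, pointing right on the strand of the gene and left on the other. ETS matches gather just before the start, and 15 of 21 YY1 matches lie at or after it, all pointing right.

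The biological replicates differed in many rows of the array, and mitoribosome rows were more often higher than lower in replicate 2. Of the 98 member rows, 43 were called higher in replicate 2, 12 lower, and 43 were not called. Over all rows 48.8% were called, 24.6% higher and 24.2% lower, against 43.9% higher and 12.2% lower among the members. The median difference of the members was 0.22, with quartiles of -0.10 and 0.67, against a median of -0.01 and quartiles of -0.32 and 0.34 over all rows. In 58 of 98 member rows every array of replicate 2 lay on the same side of every array of replicate 1, against 51.7% of all rows. When a called row also had to differ by at least 1, 11 member rows were higher, where the share of all rows was 5.43%, and 2 were lower, where it was 4.79%. The median of the member rows was 10.13 to 10.18 on the arrays of replicate 2 and 9.85 to 9.95 on those of replicate 1, while the median of all rows was 8.15 on each array. Within a replicate, the SD over arrays had a median of 0.15 for member rows and 0.157 for all rows.

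In the large subunit 29 rows were higher, 7 lower and 29 not called, with a median difference of 0.23, which was 0.37 without array 2 of replicate 1. With the array number as a block, 11 large subunit rows were lower, where the share of all rows was 26.9%. In the small subunit 14 rows were higher, 5 lower and 14 not called, with a median of 0.21, which was 0.13 when the rows of a gene were averaged. MRPS30 and MRPS18A carry small subunit names but sit in the large subunit of the mammalian mitoribosome. With both counted there, the large subunit had 31 rows higher, 7 lower and a median of 0.27, and the small subunit 12 higher, 5 lower and a median of 0.14.

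**Figure D3:**
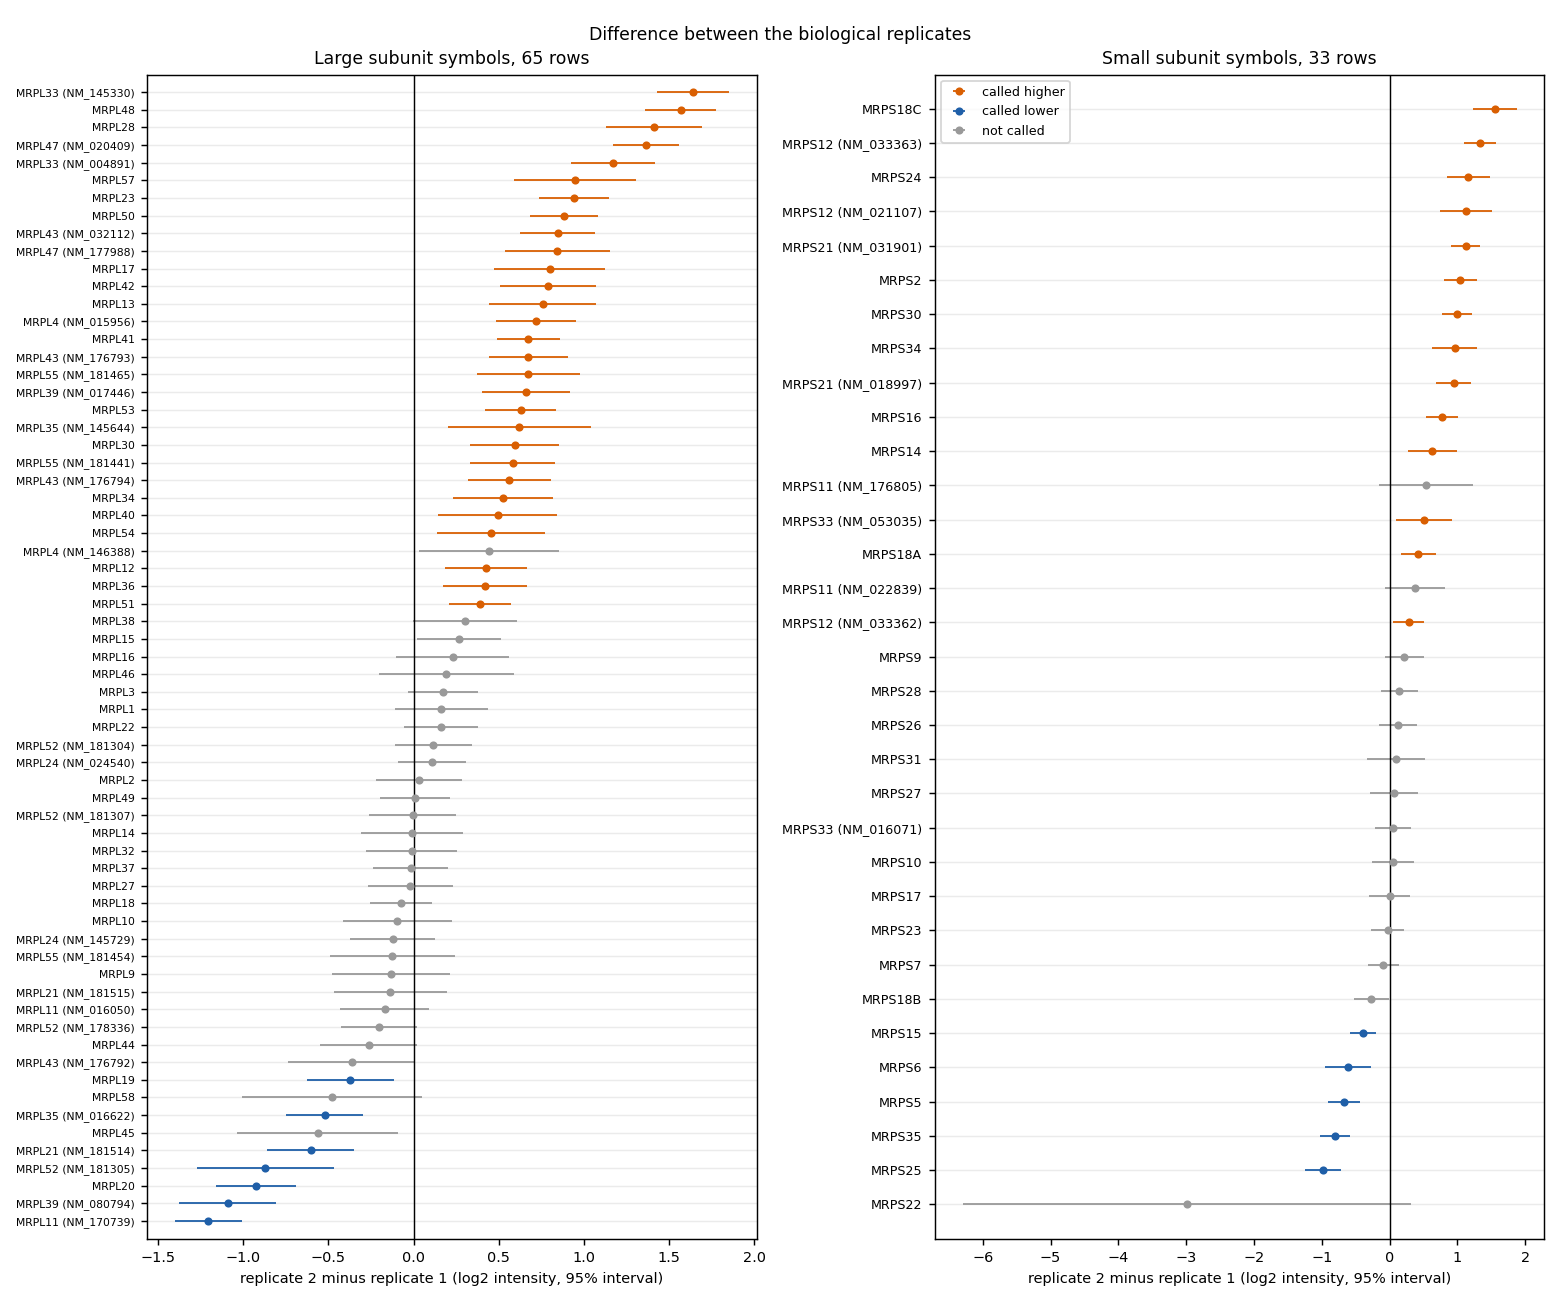
Replicate 2 minus replicate 1 (log2 intensity) of each member row with its 95% interval from the fit, large subunit left and small subunit right, on axes of different range. Orange rows were called higher in replicate 2, blue rows lower, and grey rows were not called. The large subunit runs from 1.64 (MRPL33) to -1.20 (MRPL11), and the small subunit from 1.55 (MRPS18C) to -2.99 (MRPS22, not called).

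MRPL33, a small protein whose bacterial counterpart lies near the tRNA exit site, had the largest difference among member rows that were called. Its NM_145330 row read 10.14, 10.33, 10.37 and 10.26 on the arrays of replicate 2, against 8.60, 8.60 and 8.71 in replicate 1. All arrays of replicate 2 were higher, and the difference of 1.64 (SE 0.09), or 3.12-fold, had an adjusted p of 4.89e-06 (limma). Its NM_004891 row gave 10.11, 10.06, 10.02 and 10.17 in replicate 2, against 8.92, 8.73 and 9.12 in replicate 1, a difference of 1.17 or 2.25-fold (SE 0.11, adjusted p 4.42e-05). Both rows of the gene thus moved the same way.

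MRPL48, a protein of the central protuberance with no bacterial counterpart in the ribosome, read 9.86, 9.61, 9.73 and 9.72 in replicate 2, against 8.11, 8.17 and 8.22 in replicate 1. The arrays did not overlap, and the difference was 1.57 (SE 0.09, adjusted p 5.51e-06), or 2.96-fold. MRPL28, the counterpart of bacterial L28, read 10.38, 10.21, 10.19 and 10.07 in replicate 2, against 9.05, 8.61 and 8.76 in replicate 1. Again every array of replicate 2 was higher, by 1.41 on average (SE 0.13, adjusted p 3.46e-05), or 2.65-fold. MRPL47, the counterpart of bacterial L29 beside the tunnel exit, was higher in both of its rows. The NM_020409 row read 10.45, 10.42, 10.39 and 10.38 in replicate 2, against 9.09, 9.10 and 8.94 in replicate 1, a difference of 1.37 (SE 0.09, adjusted p 7.17e-06) or 2.58-fold. The NM_177988 row differed by 0.84 (SE 0.14, adjusted p 0.000861), or 1.80-fold.

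Large subunit rows that were lower in replicate 2 were led by a row of MRPL11, which forms the base of the stalk. Its NM_170739 row read 7.17, 7.17, 7.24 and 7.07 in replicate 2, against 8.40, 8.29 and 8.41 in replicate 1. The replicate 2 mean was not above the background of that replicate, so the fold is a bound: the row was at least 2.19-fold brighter in replicate 1, with a difference of -1.20 (SE 0.09, adjusted p 1.37e-05). Where the dimmer mean was not above its background, such bounds set the brighter mean against that background. The bright NM_016050 row of MRPL11 differed by -0.17 (SE 0.12, adjusted p 0.257) and was not called. MRPL20, whose bacterial counterpart joins early in large subunit assembly and whose promoter is printed above, read 9.99, 10.02, 9.86 and 9.88 in replicate 2, against 10.89, 11.01 and 10.68 in replicate 1. Its arrays did not overlap, and it was 1.90-fold brighter in replicate 1, with a difference of -0.92 (SE 0.10, adjusted p 0.00012). The other lower large subunit rows were NM_080794 of MRPL39 at -1.09, NM_181305 of MRPL52 at -0.87, NM_181514 of MRPL21 at -0.60, NM_016622 of MRPL35 at -0.52 and MRPL19 at -0.37 (adjusted p 0.0229). The call of MRPL19 was lost without array 4 of replicate 2 (adjusted p 0.0582) and without array 2 (0.0659) or array 4 (0.0805) of replicate 1.

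By region of the large subunit, the central protuberance group had 6 of 11 rows higher and 0 lower, with a median difference of 0.42. MRPS30 and MRPS18A were assigned to this group and were both called higher, so its counts and median depend on that assignment. MRPL58, a peptidyl-tRNA hydrolase built into the central protuberance, had -0.48 (adjusted p 0.12). It was the 1 row of the group called lower with the array number as a block (0.0175) and without array 2 of replicate 1 (0.00662). MRPS30 read 10.53, 10.58, 10.37 and 10.37 in replicate 2, against 9.39, 9.56 and 9.48 in replicate 1, a difference of 0.99 (SE 0.10, adjusted p 5.79e-05) or 1.98-fold. Around the tunnel exit 5 of 11 rows were higher and 1 lower, with a median of 0.16. With the block 3 were lower, and when the rows of a gene were averaged 3 of 8 genes were higher and the median was 0.08. MRPL23 led there after MRPL47, with 0.94, while MRPL45, which anchors the ribosome at the inner membrane, had -0.56 (adjusted p 0.0506). MRPL45 was called lower with the block (0.00582), with cyclic loess (0.0448), with trend and robust (0.0383), without the dimmest rows (0.0459), without array 2 of replicate 2 (0.036) and without array 4 of replicate 1 (0.0105). In the stalk 3 of 6 rows were higher, among them MRPL12, the counterpart of the bacterial stalk protein L7/L12, at 0.43 (SE 0.11, adjusted p 0.00928), and 1 was lower. The stalk median was 0.17, and 0.43 with the rows of a gene averaged. Around the peptidyl transferase centre 1 of 6 rows was higher, NM_015956 of MRPL4 at 0.72, and 0 were lower. The block gave 2 higher there, and leaving out array 2 of replicate 1 gave 3. Large subunit rows with a bacterial counterpart were higher in 16 of 39 and lower in 5, with a median of 0.17. Those without a bacterial counterpart were higher in 13 of 26 and lower in 2, with a median of 0.35. With the block 6 of these 26 were lower, and 4 without array 2 of replicate 1. The shares over all rows of the array were 24.6% higher and 24.2% lower, and 27.0% and 26.9% with the block.

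In the small subunit the largest called difference was that of MRPS18C, which takes the place of bacterial S18. It read 8.86, 9.30, 9.03 and 8.84 in replicate 2, against 7.36, 7.68 and 7.32 in replicate 1. Replicate 1 lay below its background of 7.79 on all of its arrays, and replicate 2 was at least 2.32-fold brighter, with a difference of 1.55 (SE 0.14, adjusted p 3.82e-05). Vertebrates have 3 genes related to bacterial S18, and the other members moved less. MRPS18A read 10.31, 10.38, 10.27 and 10.19 in replicate 2, against 9.93, 10.02 and 9.63 in replicate 1. It was 1.34-fold brighter in replicate 2, with a difference of 0.42 (SE 0.11, adjusted p 0.0125). MRPS18B had -0.27 (SE 0.11, adjusted p 0.0776) and was not called.

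MRPS12, the counterpart of bacterial S12 at the decoding centre, has 3 rows. NM_033363 read 9.04, 8.73, 8.93 and 8.74 in replicate 2, against 7.50, 7.48 and 7.59 in replicate 1, at least 2.10-fold brighter in replicate 2 with a difference of 1.34 (SE 0.10, adjusted p 1.92e-05). NM_021107 differed by 1.13 (SE 0.17, adjusted p 0.000573), at least 1.99-fold. The remaining row, NM_033362, lay below background in both replicates, and its difference of 0.28 had an adjusted p of 0.0474, which was 0.0501 with the array number as a block. Without any 1 of arrays 1, 2 and 3 of replicate 2 or arrays 1, 2 and 4 of replicate 1 its adjusted p was between 0.0727 and 0.11.

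MRPS24, which lies in the head where the mRNA enters, read 12.99, 12.81, 12.64 and 12.64 in replicate 2, against 11.82, 11.33 and 11.70 in replicate 1. The arrays did not overlap, and the difference was 1.16 (SE 0.14, adjusted p 0.000184), or 2.23-fold. MRPS21 was higher in both rows. NM_031901 read 12.71, 12.58, 12.55 and 12.61 in replicate 2, against 11.57, 11.55 and 11.36 in replicate 1, a difference of 1.12 (SE 0.09, adjusted p 2.58e-05) or 2.17-fold, and NM_018997 differed by 0.94. MRPS2, the counterpart of bacterial S2, differed by 1.04 (SE 0.11, adjusted p 7.21e-05), or 2.06-fold. MRPS34, which is needed for a stable small subunit rRNA, was at least 1.26-fold brighter in replicate 2, with a difference of 0.96, and MRPS16 differed by 0.77.

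The small subunit rows lower in replicate 2 were MRPS25, MRPS35, MRPS5, MRPS6 and MRPS15. MRPS25, a protein without a bacterial counterpart, read 9.38, 9.49, 9.12 and 9.33 in replicate 2, against 10.19, 10.48 and 10.25 in replicate 1. Every array of replicate 2 was lower, and replicate 1 was 1.97-fold brighter, with a difference of -0.98 (SE 0.12, adjusted p 0.000174). MRPS35 read 10.16, 10.35, 10.28 and 10.15 in replicate 2, against 10.95, 11.05 and 11.13 in replicate 1, a difference of -0.81 (SE 0.10, adjusted p 0.000156). MRPS5, the counterpart of bacterial S5, had -0.67 (adjusted p 0.000754), MRPS6 -0.62 (adjusted p 0.00892) and MRPS15 -0.39 (adjusted p 0.00481). MRPS10, whose promoter is printed above, had 0.05 (SE 0.14, adjusted p 0.786, 95% interval -0.26 to 0.36) and was not called.

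By region, 7 of 13 rows of the body and platform were higher and 3 lower, with a median of 0.53, and 4 of 8 rows of the head were higher and 0 lower, with a median of 0.36. Small subunit rows with a bacterial counterpart were higher in 11 of 22 and lower in 3, with a median of 0.40. Of the 11 rows without one, 3 were higher and 2 lower, with a median of 0.06, which was 0.02 without array 1 or without array 4 of replicate 1. These shares were not tested against each other. The shares over all rows of the array were 24.6% higher and 24.2% lower.

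Of the 77 genes, 62 had 1 row and 15 had several, with 36 rows between them. In 6 of the 15 (40.0%) every row had the same call, against 52.8% of the 1464 genes with several rows on the whole array. They were MRPL33, MRPL47, MRPS12 and MRPS21, with every row higher, and MRPL24 and MRPS11, with no row called. With the array number as a block both rows of MRPS11 were called, at 0.34 (adjusted p 0.0166) and 0.65 (adjusted p 0.00137). In 2 of the 15 (13.3%), against 5.05% over the array, rows of a gene were called in opposite directions.

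Those genes were MRPL35 and MRPL39. The NM_017446 row of MRPL39 read 10.46, 10.60, 10.84 and 10.66 in replicate 2, against 9.84, 10.04 and 10.06 in replicate 1, a difference of 0.66 (SE 0.11, adjusted p 0.00129). Its NM_080794 row read 7.75, 7.51, 7.67 and 7.78 in replicate 2, against 8.89, 8.50 and 8.91 in replicate 1, a difference of -1.09 (SE 0.13, adjusted p 0.000137). Neither row overlapped between the replicates, and the row that was lower in replicate 2 is the dimmer, by 2.09 in level. For MRPL35, NM_145644 had 0.62 (SE 0.19, adjusted p 0.0212, and 0.0834 without array 4 of replicate 1) and NM_016622 had -0.52 (SE 0.10, adjusted p 0.00221). The levels of these rows differed by 0.10.

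Among the rest with several rows, MRPL43 had 3 rows higher, at 0.85, 0.67 and 0.56, and NM_176792 at -0.36 (adjusted p 0.0972, 0.044 with the array number as a block and 0.0107 without array 2 of replicate 1). MRPL55 had 2 rows higher, at 0.67 and 0.58, and 1 not called at -0.12. MRPL4 had 0.72, called, and 0.44, not called (adjusted p 0.0707, 0.00278 with the array number as a block and 0.0458 without array 2 of replicate 1). MRPS33 had 0.50 (adjusted p 0.0476, 0.0547 with cyclic loess, and between 0.08 and 0.11 without array 1, 3 or 4 of replicate 2 or array 2 of replicate 1) and 0.05, not called. MRPL21 had -0.60, called, and -0.14, not called. MRPL52 had 1 of 4 rows lower, at -0.87, and 3 not called between -0.20 and 0.12. Which transcripts or exons the probes of a row match, and whether they also match pseudogenes, was not tested.

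MRPS22, a small subunit protein without a bacterial counterpart in which mutations cause mitochondrial disease in humans, had the widest spread between arrays of any member, and was singled out after its values were seen. On arrays 1 and 4 of replicate 2 it read 11.62 and 11.34, close to the 11.50, 11.98 and 11.31 of replicate 1, but on arrays 2 and 3 it read 5.84 and 5.62, below background. Its difference of -2.99 (SE 1.46, adjusted p 0.121) was not called, and the 95% interval ran from -6.30 to 0.31. Without array 1 of replicate 2 the difference was -4.0 (adjusted p 0.0412) and without array 4 it was -3.91 (adjusted p 0.0493). In 21 of 24000 rows arrays 2 and 3 of replicate 2 were both at least 2 below arrays 1 and 4, and no row had such a split with any of the 5 other choices of a low pair among the 4 arrays. The gap between the pairs ran from 2.06 to 6.5 in these rows, and the 5.5 of MRPS22 ranked 3 from the top. Among the named rows were PSMD1, RPL35A, SNRPN, ATP5ME and EZH1. Of the 21 rows, 4 were called lower in replicate 2 and 17 were not called. In 18 of them the mean of replicate 1 was more than 2 above the low arrays. Signals of single probes were not analysed here.

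**Figure D4:**
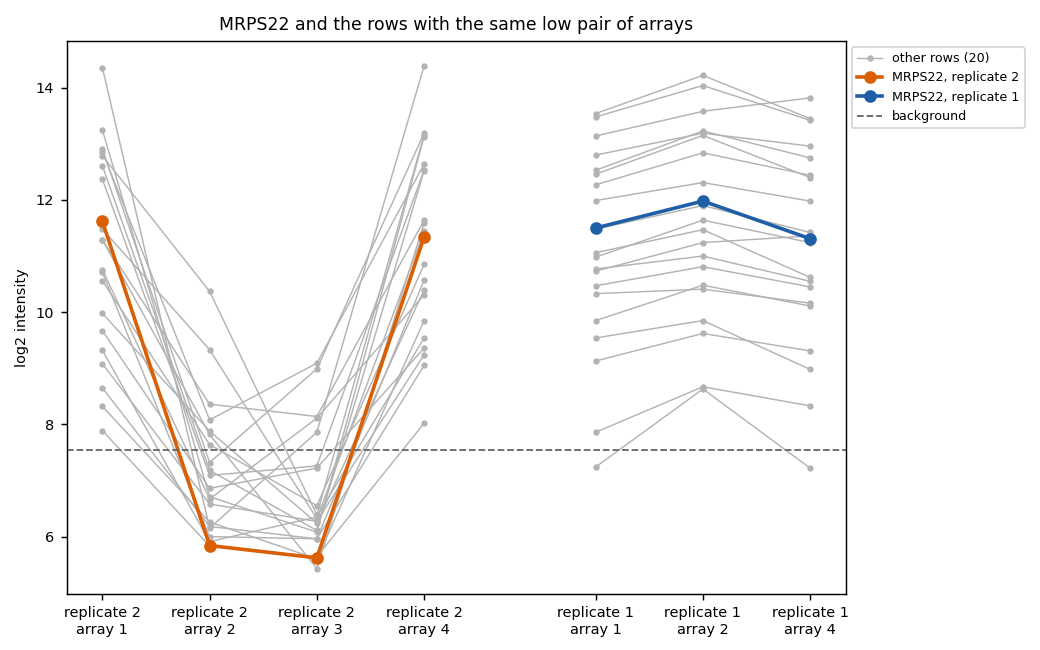
Log2 intensity on each array of MRPS22 (large points, orange in replicate 2 and blue in replicate 1) and of the 20 other rows (grey) in which arrays 2 and 3 of replicate 2 were both at least 2 below arrays 1 and 4. The dashed line is background. MRPS22 falls to 5.84 and 5.62 on the low arrays and stands between 11.31 and 11.98 on the others.

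Calls were also counted by promoter letters, as a description and for member rows only. Over all rows of the array 24.6% were higher and 24.2% lower. Calls by letters were not counted for other genes, and no link between letters and calls was tested. Rows of genes with the ETS letters were higher in 24 of 41 and lower in 2, with a median difference of 0.45, and 4 were lower with the array number as a block or without array 2 of replicate 1. Rows with the YY1 letters were higher in 12 of 26 and lower in 2, with a median of 0.24. Rows of the 28 genes with neither were higher in 11 of 35 and lower in 8, with a median of 0.01, which lay between -0.05 and 0.09 without 1 array. The 8 genes with both had 7 of 14 rows higher and 2 lower. MRPS18A, MRPL20 and MRPS10, whose printed windows share the arrangement, differed by 0.42, -0.92 and 0.05.

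Genes of nuclear regulators of mitochondrial genes were measured on the same arrays, and only some of these regulators bind the letters above. YY1 read 11.09, 11.15, 10.94 and 11.00 in replicate 2, against 10.45, 10.51 and 10.33 in replicate 1, a difference of 0.61 (SE 0.10, adjusted p 0.000698). GABPB1, the cofactor subunit of GABP, was higher in 3 of 4 rows, at 0.77, 0.72 and 0.61, with NM_005254 at -0.27 (adjusted p 0.103, and 0.0393 with the array number as a block). GABPA, the DNA-binding subunit, lay below background in both replicates. NRF1 was lower, at -0.79 (SE 0.12, adjusted p 0.0007). MYC, which raises mitochondrial biogenesis in other cells, differed by 0.80 (SE 0.09, adjusted p 9.99e-05), or 1.74-fold. ESRRA was at least 1.41-fold brighter in replicate 2, with a difference of 0.82, and PPARGC1B differed by 0.55 (adjusted p 0.00597). PPARGC1A, at 0.14 (adjusted p 0.29), and PPRC1, at -0.15 (adjusted p 0.59), were not called. Over the 9 regulator genes 7 of 12 rows were higher and 1 lower, or 2 lower with the block, with a median of 0.58.

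Further proteins of the mitoribosome without an MRPL or MRPS symbol had 3 of 5 rows higher and 0 lower, with a median of 0.43. AURKAIP1, a small subunit protein, differed by 1.01 (SE 0.09, adjusted p 3.52e-05), or 2.01-fold, and GADD45GIP1, a large subunit protein, by 0.91. CHCHD1 differed by 0.43 (adjusted p 0.0471), a call that was lost, with adjusted p between 0.0802 and 0.138, on leaving out any 1 array other than array 4 of replicate 2. DAP3, a GTP-binding protein of the small subunit, had -0.23 (adjusted p 0.182, and 0.0153 without array 2 of replicate 1), and PTCD3 had -0.28 (adjusted p 0.581, and 0.0136 with the array number as a block).

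Lists of factors that build or serve the mitoribosome had medians near or below 0. Assembly factors had 5 of 26 rows higher and 8 lower, with a median of -0.07, which was -0.01 without array 2 and -0.11 without array 4 of replicate 1. The ends were a row of YBEY, an RNA-processing factor, at 0.91 and FASTKD2, a large subunit assembly factor, at -0.94, and the other YBEY row had -0.82 (adjusted p 0.111, and 0.0201 without array 4 of replicate 2). Translation factors had 2 of 16 higher and 4 lower, with a median of -0.22. With the block 7 were lower, and 0 or 1 was higher without array 3 or 4 of replicate 2 or array 1 or 4 of replicate 1. GUF1 led at 0.79 (adjusted p 0.0273, and between 0.0627 and 0.0645 without array 3 or 4 of replicate 2 or array 1 of replicate 1), a GFM2 row was lowest among those called at -1.26, and TUFM, the elongation factor that brings aminoacyl-tRNA, had -0.85 (adjusted p 0.045, 0.103 with the array number as a block, 0.0976 with trend and robust, and between 0.0915 and 0.151 without array 2 or 3 of replicate 2 or array 1 or 2 of replicate 1). Mitochondrial aminoacyl-tRNA synthetases had 2 of 15 higher (1 without array 4 of replicate 1) and 5 lower, with a median of -0.13, and ran from LARS2 at 0.83 to FARS2 at -1.77. Genes of mitochondrial transcription and RNA processing had 4 of 15 higher and 2 lower, with a median of 0.09, which was 0.05 with the block. Without array 1 of replicate 2, or array 2 or 4 of replicate 1, 2 were higher.

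SLIRP, an RNA-binding partner of LRPPRC that stabilises mitochondrial mRNAs, had the largest difference of that list. It read 10.77, 10.78, 10.78 and 10.78 in replicate 2, against 8.41, 8.93 and 8.52 in replicate 1, a difference of 2.16 (SE 0.13, adjusted p 5.14e-06) or 4.46-fold. LRPPRC itself differed by -0.71 (SE 0.15, adjusted p 0.00346), so the genes of this complex were called in opposite directions. TFAM, which packages mitochondrial DNA and takes part in starting its transcription, differed by 0.85. POLRMT differed by 0.35 (adjusted p 0.0339). Its adjusted p lay between 0.0529 and 0.124 without array 1, 2 or 3 of replicate 2 or array 2 or 4 of replicate 1. MTERF1, below background in both replicates, differed by -0.90.

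Rows of the respiratory chain and ATP synthase were higher in 51 of 85 and lower in 7, with a median of 0.48, and ran among those called from COX7B at 2.07 (4.20-fold) to NDUFB4 at -1.44. Cytosolic ribosomal proteins were higher in 59 of 92 and lower in 3, with a median of 0.46, from RPS24 at 1.92 (3.77-fold) to RPS10 at -3.95. Set beside them, the large and small subunits of the mitoribosome had smaller median differences, 0.23 and 0.21. No test of the difference between lists was made.

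**Figure D5:**
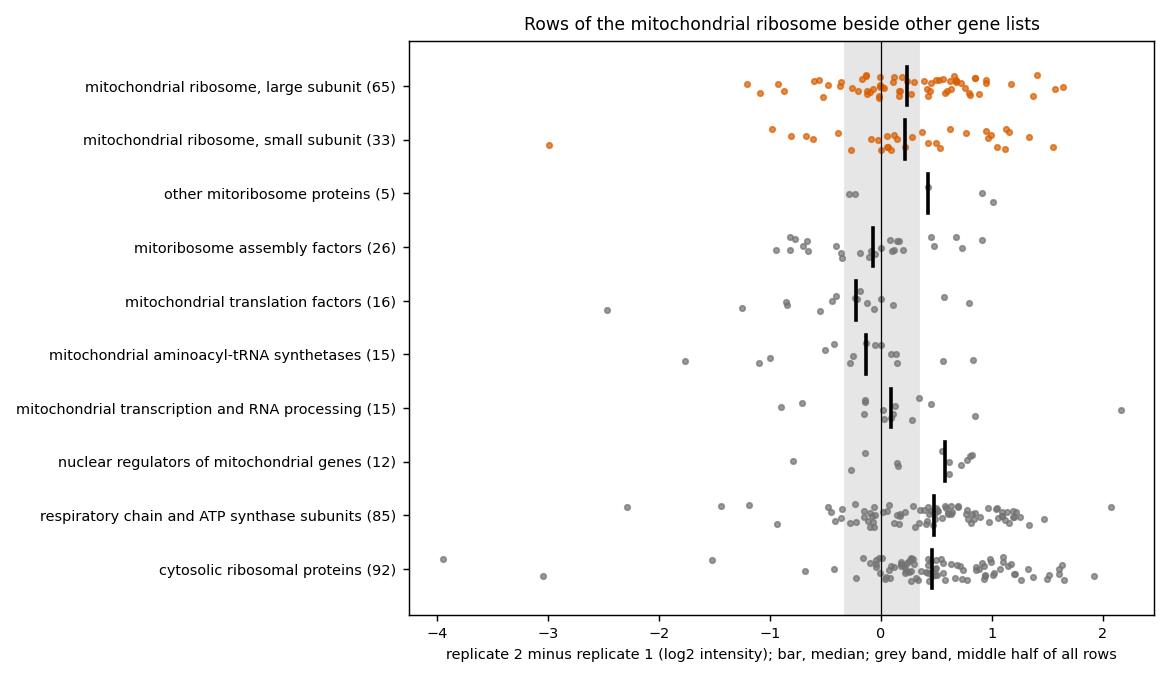
Replicate 2 minus replicate 1 (log2 intensity) for each row of the large and small subunit (orange) and of 8 other lists (grey), with the number of rows in brackets. Black bars are medians and the grey band is the range between the quartiles of all rows. The medians run from -0.22 for translation factors to 0.58 for nuclear regulators, with the subunits at 0.23 and 0.21.

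Promoters of 13 of the 69 genes (18.8%) had another gene starting within 250 bases on the opposite strand, against 8.22% of all 15843 genes. Of the 5 such pairs in which both genes were called, 4 were called in opposite directions and 1 in the same. Over all rows 24.6% were called higher and 24.2% lower. The share of opposite calls among all such pairs on the array was not counted. MRPL57 differed by 0.95 and its neighbour SKA3, which acts at the kinetochore, by -0.89. MRPL30 had 0.59 and MITD1 -0.80, MRPL50 had 0.88 and ZNF189 -0.34, and MRPS18C had 1.55 and HELQ -0.42. MRPS12 and SARS2, the mitochondrial seryl-tRNA synthetase gene, were both higher, SARS2 by 0.56. Some of these calls were lost on leaving out 1 array. ZNF189 then had an adjusted p of up to 0.0824 (array 4 of replicate 2, array 1 or 4 of replicate 1). HELQ had up to 0.0698 (array 2 or 3 of replicate 2, array 1 or 2 of replicate 1), and SARS2 had 0.0619 (array 4 of replicate 1). MRPL49 had 0.01, while FAU, which encodes a cytosolic ribosomal protein, had 1.01. These pairs were named after their values were seen. The only members next to each other were MRPL46 and MRPS11, and none of their rows was called without the block.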

How the data were processed

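The authors deposited 1 log2 intensity per array and row, and the submitters' processing notes name RMA and limma, without versions. RMA corrects background, normalises arrays by quantiles and summarises probes. The log base, which no source states, was taken as 2. The sorted columns were equal within 0.002, so quantile normalisation came before deposit, and a change common to all rows cannot be seen. RNA was extracted with TRIzol, purified on columns and labelled from Cy3 primers with Klenow enzyme, per the labels' protocols. Their genome build and annotation were not given in the sources used here.

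Rows were named by accession through a RefSeq table of GRCh38.p14, which matched 19125 rows. The 4875 unmatched rows entered the tests only. Replicate 2 was compared with replicate 1 row by row over all 7 arrays with limma 3.58.1 in R 4.3.3 (lmFit and eBayes, Benjamini-Hochberg over 24000 rows, threshold 0.05), a step that was tested on simulated data. Where no error is given, a value is the fitted difference. The 2 biological replicates and the number of arrays limit the precision.

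Same-numbered arrays deviated together from their replicate means, with correlations across rows of 0.211, 0.35 and 0.399 for arrays 1, 2 and 4. Differently numbered arrays gave -0.384 to 0.203. The highest of these, array 3 of replicate 2 with array 4 of replicate 1, was close to the value for arrays 1. By this check, not by the labels, the array number was taken to pair arrays, and a fit with it as a block was run as an alternative. Array 3 of replicate 2 has no partner in replicate 1, so the blocked difference rests on arrays 1, 2 and 4. Changes under the block thus combine the pairing with the loss of array 3. Other alternatives were cyclic loess, eBayes with trend and robust, removal of the dimmest 25% of rows, averaging of the rows of a gene, each array left out in turn, a minimum difference of 1, a stricter background and levels over all arrays. Counts without MRPS22, without rows below background, and with MRPS30 and MRPS18A moved were added after seeing the data.

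The members and gene lists were chosen with earlier results of these data known. Genes were named by rule: per subunit the 5 largest called differences in each direction, the 3 highest and 3 lowest levels, all genes with several rows, the MRPS18 genes, MRPS30 and rows with a lone array, and from other lists the largest called difference in each direction, all regulators and all further mitoribosome proteins. Other members illustrate regions or promoters. Promoter windows come from RefSeq. Protein sequences were not used here.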

Additional observations from a re-analysis of the deposited data

Results flagged for a closer look

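In 2 of the 98 member rows a single array of replicate 2 stood apart from the other arrays of that replicate, where chance flags about 1 in 20 groups. MRPL10, a protein of the stalk, read 11.83 on array 4 of replicate 2, while its other arrays of that replicate read 12.05 to 12.09, so the gap was 0.868 of the whole range. Its difference between the replicates was -0.10 and was not called. MRPL46, a protein of the central protuberance, read 8.22 on array 4 of replicate 2, against 8.02 to 8.03 on the others, a gap of 0.938 of the range. Its difference was 0.19 and was not called. The 3 arrays of replicate 1 were not tested this way.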

How the results depend on the processing

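With the array number as a replicate block 62 of 98 member rows were called, against 55 in the unblocked fit. Of these, 54 were called in both fits and 1 was lost, NM_033362 of MRPS12. The block gave 11 lower rows in the large subunit, against 7. Among members and genes of the other lists, it changed no other call named in the report than those given there with their blocked value. With a difference of at least 1 required, the large subunit had 5 rows higher and 2 lower, and the small subunit 6 higher and 0 lower. Leaving out each array in turn gave 26 to 33 large subunit rows higher and 6 to 8 lower, and 12 to 13 small subunit rows higher and 5 to 6 lower, with median differences of 0.21 to 0.37 and 0.20 to 0.25. Averaging the rows of a gene gave a small subunit median of 0.13. The lower end of the called members, 51, came without array 4 of replicate 1, and the upper end, 59, without array 2 of replicate 1. No called member row turned its direction under the block, cyclic loess, trend and robust, removal of dim rows or a left-out array. Among named rows called before or after it, averaging the rows of a gene turned 4: NM_016622 of MRPL35 to 0.05 (adjusted p 0.766), NM_017446 of MRPL39 to -0.22 (adjusted p 0.0871), NM_176792 of MRPL43 to 0.43 (adjusted p 0.00365) and NM_181454 of MRPL55 to 0.38 (adjusted p 0.0141). There the average takes in rows that differ. Over 59 rows named by rule or singled out and all settings, 672 of 707 values kept the call. Of the others, 17 lost the call and 14 gained it without turning, and 4 turned. A turn was counted only where the row was called in the main fit or in the setting. Among the 672, rows called in neither could change sign, as MRPL10 and MRPL46 did on leaving out 1 array. Over all 24000 rows 48.8% were called, and between 41.6% and 53.8% under the alternatives that kept every row. Without the dimmest 25% of rows, 56.8% of the remaining 18000 were called. With the rows of a gene averaged, 49.8% of 17217 genes were called. Single probes and detection calls were not analysed here, so precision at low signal is unknown.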
